A study of Arabidopsis thaliana with 90 samples.

Results

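Peaks of total RNA polymerase II (Pol II) were compared with peaks of Pol II phosphorylated at serine 5 of its C-terminal domain (Ser5P) in wild-type Arabidopsis thaliana seedlings. The comparison used 6 of the 90 libraries of the series, and 30 of the 90 had peak lists that could be read. Both groups were Col-0 whole seedlings of 9 days, grown in continuous white light, with 3 libraries each and no treatment. By the labels they differed in the antibody alone, which was ab817 for total Pol II and ab5408 for Ser5P. Chromatin had been sheared to 200 to 500 bp, and the replicates were biological according to the series' design. Whole seedlings mix many cell types, so a gene with both forms may carry them in different cells. The libraries were chosen by their labels, and which genes, gene ends and regions carried one form only was read from the 3 peak lists of each form.

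The largest subunit of Pol II ends in a long tail of repeated heptapeptides. Serine 5 of the repeats is phosphorylated as a polymerase initiates and leaves the promoter, mainly by the kinase of the general factor TFIIH, and serine 2 is phosphorylated later, as the polymerase elongates. Antibodies to total Pol II are meant to read the polymerase whatever its phosphorylation, although an antibody raised to the repeats can prefer tails with little phosphate.

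The forms shared most of their peaks, and the clearest differences lay in where the peaks sat. The total Pol II lists held 11012, 11783 and 11835 peaks, and the Ser5P lists held 11988, 13716 and 13949. Of the total Pol II peaks, 78.0% ± 3.6 (SD over 9 pairs of libraries) were met by a Ser5P peak. Of the Ser5P peaks, 74.4% ± 3.4 (SD over 9 pairs) were met by a total Pol II peak. Between libraries of the same form these shares were 88.7% ± 4.3 for total Pol II and 86.5% ± 6.5 for Ser5P (SD over 6 pairs each). The range between libraries of different forms, 69.7% to 82.5%, overlapped the range within a form, 78.3% to 93.5%.

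Peaks of total Pol II were wider. Their median width was 623, 637 and 645 bp in the 3 libraries, and that of Ser5P peaks was 517.5, 534 and 539 bp. The groups did not overlap, and the difference in means was 105 bp (exact permutation test, p = 0.1, the smallest possible, and 0.118 after adjustment over 20 measures; n = 3 libraries each). Peaks wider than 2000 bp made up 14.2%, 14.8% and 15.5% of the total Pol II peaks and 8.53%, 8.66% and 8.62% of the Ser5P peaks. The total Pol II peaks covered 11.2, 12.3 and 12.6 Mb in their fewer peaks, and the Ser5P peaks covered 9.75, 11.4 and 11.6 Mb, so the covered lengths of the groups overlapped.

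Ser5P peaks lay away from annotated genes more often. The share of peaks that touched no gene of any kind, coding or not, was 1.96%, 2.02% and 2.16% for total Pol II, and 10.7%, 11.8% and 12.0% for Ser5P. These were 216 to 256 peaks of total Pol II and 1278 to 1675 peaks of Ser5P per library. The groups did not overlap, with a mean of 2.05% ± 0.10 against 11.5% ± 0.74 (SD, n = 3; exact permutation test, p = 0.1, adjusted 0.118). The gap was as large among the 11012 best-scoring peaks of each library, at 1.98% against 11.6%, and without any one library total Pol II minus Ser5P was -9.88 to -9.21 percentage points.

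**Figure D1:**
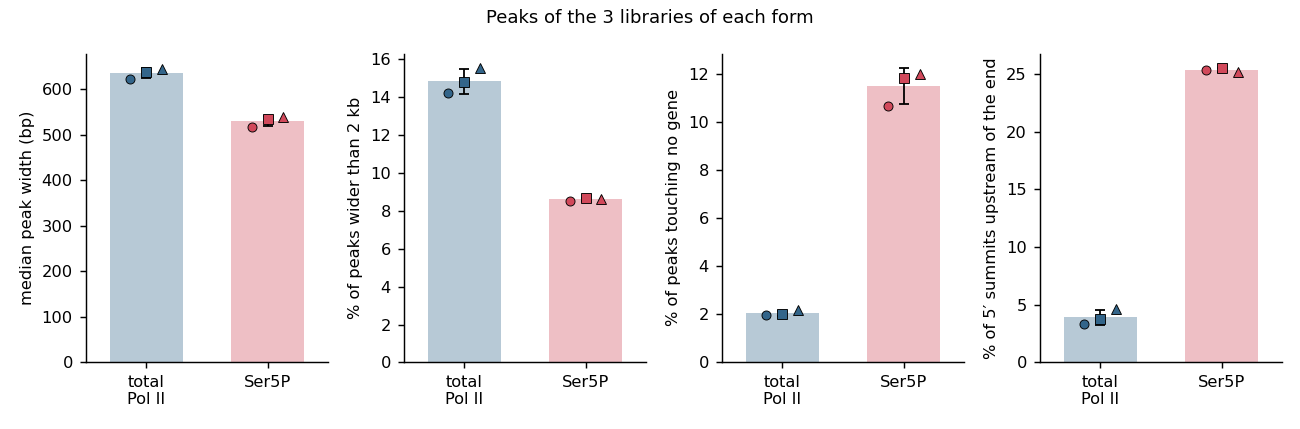
Median peak width (bp), share of peaks wider than 2000 bp, share of peaks that touched no annotated gene, and share of summits at the 5′ ends of isolated genes that lay upstream of the end, for total Pol II (blue) and Ser5P (red). Bars are means with the SD over 3 libraries and symbols are the libraries. In every panel the 3 libraries of one form lie apart from those of the other, for example at 1.96% to 2.16% against 10.7% to 12.0% for peaks off genes.

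At the 5′ ends of genes the summits of the 2 forms stood in different places. Positions were read in 13293 oriented genes of at least 1000 bp (48.4% of 27444 nuclear coding genes), of which 2493 had no other gene within 500 bp and are called isolated. In isolated genes, the highest summit of each gene from 500 bp upstream to the middle of the gene was taken. It lay a median of 483, 464 and 470 bp downstream of the 5′ end for total Pol II (539 to 613 genes per library). For Ser5P the medians were 256, 230 and 233.5 bp (561 to 679 genes). The groups did not overlap (means of 472 and 240 bp; exact permutation test, p = 0.1, adjusted 0.118; n = 3 each).

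Upstream of the annotated 5′ end the contrast was larger still. Summits upstream of the end made up 3.34%, 3.75% and 4.60% of the total Pol II summits there, and 25.3%, 25.5% and 25.1% of the Ser5P summits. The 25th percentile of the total Pol II summits lay 298 to 312.5 bp inside the gene, and that of the Ser5P summits at -7.5 to -3.0 bp, at the annotated end itself. The groups did not overlap (3.90% ± 0.64 against 25.3% ± 0.17, SD, n = 3; exact permutation test, p = 0.1, adjusted 0.118). With directions taken from H2A.Z the shares were 5.87% and 26.9%, and in genes of at least 2000 bp they were 3.79% and 23.7%.

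**Figure D2:**
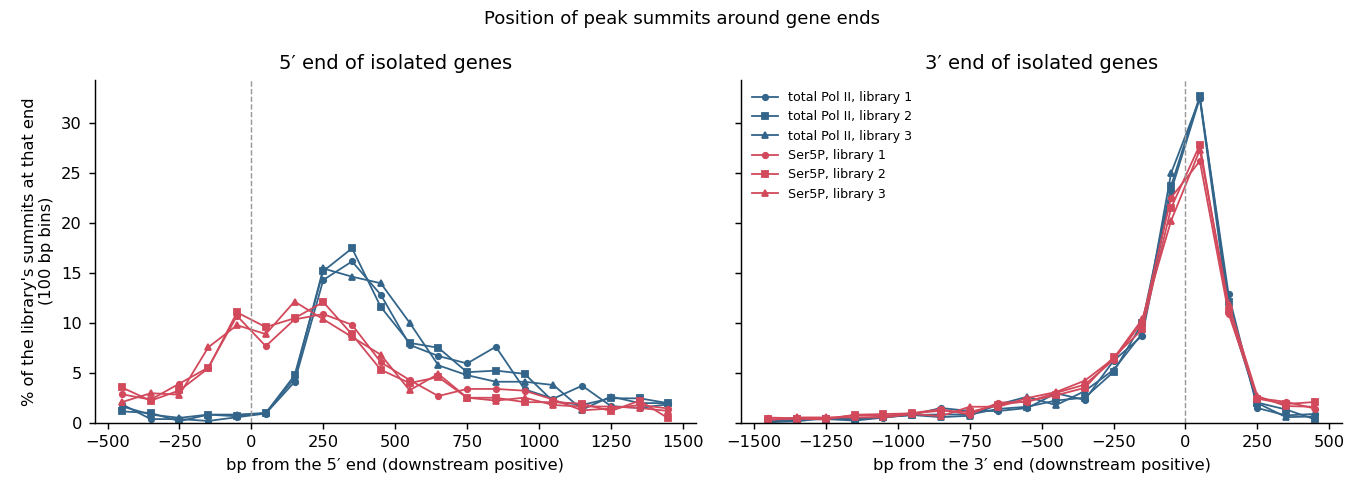
Share of each library's summits (%) by their distance from the 5′ end (left) and the 3′ end (right) of isolated genes, in bins of 100 bp, with 3 libraries per form. At the 5′ end total Pol II (blue) rises from about 200 bp inside the gene and Ser5P (red) is spread from upstream of the end, where 25.1% to 25.5% of its summits lie, while at the 3′ end both forms peak at the annotated end.

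Over all oriented genes, the highest summit inside the gene lay mostly toward the 3′ end for both forms. Summits beyond either end were left out here, and those upstream of the 5′ end were more frequent for Ser5P in isolated genes. What this does to the differences below was not tested. The median relative position, from 0 at the 5′ end to 1 at the 3′ end, was 0.88, 0.87 and 0.86 for total Pol II and 0.91, 0.91 and 0.90 for Ser5P. Positions above 0.8 held 53.5% to 55.7% of the total Pol II summits and 57.9% to 60.5% of the Ser5P summits. Positions below 0.1 held 14.0% to 15.3% and 16.0% to 18.0%. Between 0.1 and 0.2, just inside the gene, the order was the other way, with 9.98% to 10.8% for total Pol II and 5.16% to 5.56% for Ser5P. None of these 4 measures overlapped between the groups (exact permutation test, p = 0.1, adjusted 0.118 each; n = 3). The difference below 0.1, -2.20 percentage points for total Pol II minus Ser5P, depended on the peaks and genes used. It was -0.64 with peaks of −log10 q of at least 5 (exact permutation p = 0.5), -1.07 with lists of equal length (p = 0.2), -1.50 in genes of at least 2000 bp (p = 0.2) and -4.05 in isolated genes (p = 0.1). The difference in median relative position was -0.034, and it was -0.019 with −log10 q of at least 5, -0.020 in isolated genes (exact permutation p = 0.2) and -0.119 when all summits of a gene were counted.

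At the 3′ end the forms were close together, although the groups did not overlap. For the median summit and the share of genes given next, the exact permutation test gave p = 0.1, adjusted 0.118, each. In isolated genes the median summit lay at -6, -5 and -9 bp from the annotated end for total Pol II and at -25, -17 and -19 bp for Ser5P, inside the gene in each case. Of the genes with a form, 90.7% to 91.2% had a total Pol II peak within 250 bp of the 3′ end and 86.5% to 87.2% a Ser5P peak. For the 5′ end these shares were 45.0%, 48.7% and 49.1% for total Pol II and 44.7%, 48.6% and 49.99% for Ser5P, and they overlapped (exact permutation test, p = 1). The sign of that last difference turned with the window. Within 100 bp of the 5′ end the mean shares were 35.1% for total Pol II and 42.2% for Ser5P, and within 500 bp they were 53.6% and 51.5%.

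Most genes that had both forms kept their highest summits in the same part. Of 2636 oriented genes with a summit of both forms inside the gene in all 6 libraries, 1369 had all 6 summits in the 3′ part of the gene (a relative position of 0.5 or more) and 398 had all 6 in the 5′ part. In 55 genes total Pol II lay in the 5′ part and Ser5P in the 3′ part in every library, and in 29 genes the converse held. Among the 398 genes, the 3 Ser5P summits were all nearer the 5′ end than the 3 total Pol II summits in 69 genes, and all farther in 37. The median difference in distance from the 5′ end, Ser5P minus total Pol II, was only -11 bp. Among the 1369 genes the numbers were 134 and 69, with a median difference of -5 bp, so the lean was not particular to the 5′ part. These genes were chosen for summits inside the same part of the gene, which leaves out summits upstream of it.

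Few genes carried one form only in every library. Of the 27444 coding genes, 9770 had both forms in 3 of 3 libraries, a share of 35.6%. Total Pol II alone, in 3 of 3 libraries with Ser5P in none, was found at 365 genes (1.33%), and Ser5P alone at 369 genes (1.34%). A further 4559 genes (16.6%) were mixed, with either form in only some libraries, and 12381 (45.1%) had no peak of either. Just outside the classes, 395 genes had total Pol II in 3 libraries and Ser5P in 1, and 247 had the reverse. The median fold of the form found in 3 libraries was 2.78 and 2.76 in those genes, and 2.61 and 2.81 in the one-form classes. The size of each class hung on the rule, on single libraries and on the length of the lists. With a form in at least 2 of 3 libraries and the other in at most 1, there were 1299 total-only and 1252 Ser5P-only genes, and the authors' lists for the whole series gave 1269 and 1305. The sources used here name no control for peak calling, so a difference in control between the forms and a difference in the forms themselves cannot be told apart in these classes. Without total Pol II replicate 1 the total-only genes numbered 549, and without Ser5P replicate 1 the Ser5P-only genes numbered 619. With the same number of best-scoring peaks in every library there were 563 total-only and 272 Ser5P-only genes.

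Libraries that had not been used to define a class gave a check on it. Classes were formed from 4 libraries and read in the 2 held out, in all 9 ways. Genes called total-only had a total Pol II peak in the held-out library in 68.9% to 88.1% of cases and a Ser5P peak in 9.0% to 32.0%. Genes called Ser5P-only had a Ser5P peak in 59.5% to 83.7% and a total Pol II peak in 9.1% to 22.3%. Genes called both had either form in 95.0% to 98.8%.

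One-form genes had weak peaks. The median over genes of the fold in the lowest library was 2.302 for total Pol II at total-only genes, against 3.76 at genes with both forms. It was 2.48 for Ser5P at Ser5P-only genes, against 3.34 at genes with both. Of the peaks of a library, those met by no peak of the other form in any library numbered 1310 to 1825 for total Pol II and 2039 to 3069 for Ser5P. Among total Pol II peaks above the 75th percentile of fold, 0% to 0.17% were alone in this way, and among Ser5P peaks above theirs 4.00% to 6.21% were.

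The classes differed in gene length, which the rule did not use but which sets how much of a gene a peak can touch. The median length was 1770 bp for total-only genes, 2750 bp for Ser5P-only genes, 2489 bp for genes with both and 2078 bp for all genes. Among genes over 1000 and up to 2000 bp, 1.92% were total-only and 0.89% Ser5P-only. Among genes over 4000 bp, 0.43% were total-only and 2.80% Ser5P-only.

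Many one-form genes were touched by the edge of a peak whose summit lay elsewhere. The summit lay inside the gene in all 3 libraries at 144 total-only genes (39.5%) and 136 Ser5P-only genes (36.9%). At 140 and 131 genes the peak also met no peak of the other form in any library, and these are called free-standing. The 8 total-only genes with the highest fold all shared their peak with a neighbour, and at each of them the summit lay outside the gene. MBAC1 (AT2G33820), a mitochondrial basic amino acid carrier, had total Pol II folds of 13.6, 15.2 and 15.0 from a peak centred on its neighbour AT2G33830, which carried both forms. AT5G46115 (14.8, 13.1 and 16.4) shared the peak of APE2, the triose phosphate translocator of the chloroplast. AT3G02480 (12.9, 14.1 and 13.7) shared that of SAMDC, an enzyme of polyamine synthesis. TSC10B, a reductase of sphingolipid synthesis, shared that of AT5G19190. In each case the total Pol II peak reached the named gene and no Ser5P peak did, in any library.

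**Figure D3:**
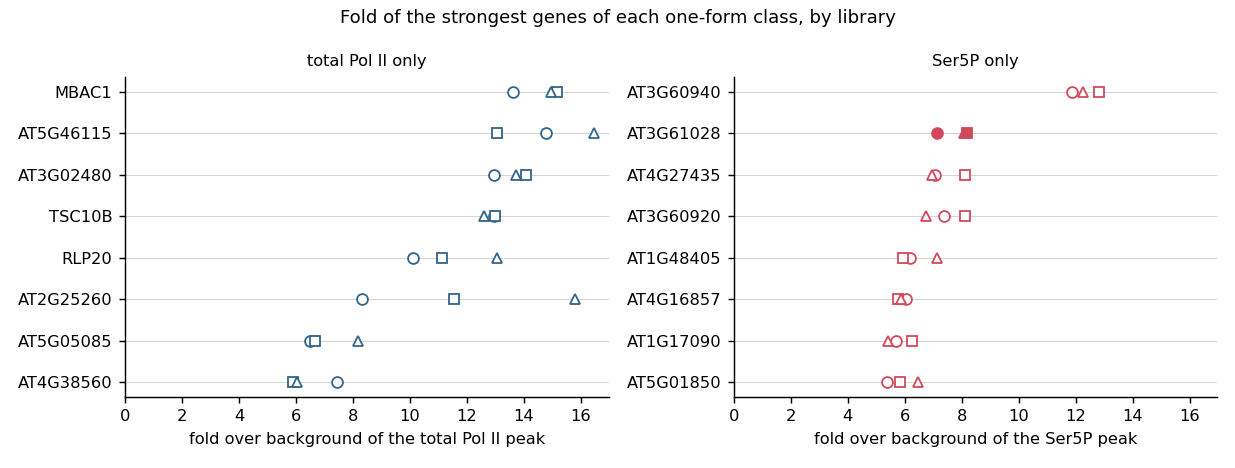
Fold over background, as the authors gave it, of the peak at the 8 total-only genes (left) and 8 Ser5P-only genes (right) with the highest fold in their lowest library. Symbols are the 3 libraries and filled symbols mark a summit inside the gene, which holds for AT3G61028 alone among the 16.

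The free-standing total-only genes were weaker. AT5G43620 had folds of 4.65, 4.54 and 4.47, with the summit at a relative position of 0.38 to 0.39 from its left end. AT5G50760 had 3.61, 5.05 and 4.38. NTM1 (AT4G01540), a membrane-tethered NAC transcription factor, had 3.56, 4.29 and 3.91, with its summit 0.11 to 0.12 of the way from its 5′ end. Hsp70-15 (AT1G79920), a heat shock protein of the Hsp70 family, had 3.39, 3.38 and 3.65, with the summit at 0.06 to 0.07. No library of Ser5P had a peak at these genes. TINY (tny, AT5G25810), an AP2/ERF transcription factor, had 3.04, 3.29 and 3.41, while its summit moved between 0.02 and 0.41 over the libraries.

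Of the 8 Ser5P-only genes with the highest fold, 3 lay in 1 stretch of chromosome 3 and others shared a neighbour's peak. The peaks of AT3G60940 (11.9, 12.8 and 12.3) and AT3G60920 (7.38, 8.13 and 6.76) lay between positions 22513139 and 22521764. That of AT3G61028 (7.13, 8.19 and 8.07) lay farther on, between 22582209 and 22583560. The peaks of these 3 genes met no total Pol II peak. AT4G27435 (7.05, 8.10 and 6.97), AT1G48405 (6.19, 5.94 and 7.14) and AT4G16857 (6.04, 5.76 and 5.86) shared peaks with neighbours that carried both forms. Those neighbours were PORB, a light-dependent enzyme of chlorophyll synthesis, AGO1, the main argonaute of the microRNA pathway, and RPP4, a disease resistance receptor. AT5G01850 had 5.36, 5.84 and 6.48, with no coding neighbour under that peak in all 3 libraries and the summit at a relative position of -0.09 to -0.08, upstream of its 5′ end. Its Ser5P peak was not free of total Pol II peaks in every library, although none of those reached the gene.

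AT3G61028, above, had the highest fold among the free-standing Ser5P-only genes. AN3 (AT5G28640), a transcriptional coactivator of leaf growth, had Ser5P folds of 4.78, 4.85 and 3.70, with the summit in the middle of the gene at 0.50 to 0.51. AT1G22490 had 4.17, 5.03 and 4.77, with the summit at 0.78 to 0.79 from the 5′ end, and AT4G11350 had 4.78, 4.35 and 4.05 at 0.61 to 0.62. In these 3 genes the summit stood at nearly the same place in each library.

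Of 255 genes in 11 lists of known function, 3 were in a one-form class. LTI78 (RD29A, AT5G52310), a cold- and drought-induced gene, had total Pol II folds of 2.11, 2.05 and 1.88 and no Ser5P peak. IAA19 (AT3G15540), a repressor of the auxin response, had Ser5P folds of 3.96, 4.23 and 4.40 and no total Pol II peak. Its Ser5P summit lay at a relative position of -0.08 to -0.06, upstream of the 5′ end. AP1 (AT1G69120), a floral identity gene, had Ser5P folds of 3.05, 2.94 and 3.54 just past its right end, at 1.02 to 1.04, where the direction of the gene was not known. The shares in all genes were 1.33% and 1.34%, and 1 and 2 members of 255 are not far from them.

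Most of the lists held genes with both forms more often than the 35.6% of all genes. All 38 photosynthesis genes and all 16 housekeeping genes carried both. So did 21 of 25 histone genes, 18 of 20 ribosomal protein genes, 16 of 18 light-signalling genes and 15 of 18 clock genes. Both were also carried by 21 of 27 genes of Pol II machinery and elongation, 15 of 24 stress-inducible genes and 13 of 24 Aux/IAA genes. Of 24 seed and floral genes, 22 had neither form and 1 had both. Of 21 replication and cell cycle genes, 3 had both, 9 were mixed and 9 had neither. The highest total Pol II fold among genes with both forms, in the lowest library, was that of CAF1a (AT3G44260), a deadenylase subunit, with 18.6, 18.5 and 21.7 for total Pol II and 11.6, 13.8 and 14.7 for Ser5P. CAB2 (LHCB1.1, AT1G29920), a light-harvesting chlorophyll protein, had 15.0, 14.9 and 21.4 and 11.0, 10.9 and 14.9, with summits of both forms near 0.20 of the gene in all 6 libraries. LHCB1 genes are close copies of each other, so reads may be split among them.

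Folds of the 2 forms ran together over the 9770 genes with both. Spearman's rho was 0.83 to 0.86 between libraries of total Pol II and 0.78 to 0.82 between those of Ser5P. Between the forms it was 0.75 to 0.76 for libraries with the same number and 0.65 to 0.69 for other pairs. These are correlations across genes, which are not independent replicates.

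Gene ends differed in which form was found alone. Of 13293 oriented genes, 264 had total Pol II alone at the 5′ end (1.99%) and 480 had Ser5P alone there (3.61%). At the 3′ end 263 had total Pol II alone (1.98%) and 160 had Ser5P alone (1.20%). Both forms were found at the 5′ ends of 2841 genes (21.4%) and the 3′ ends of 6913 (52.0%). The order at the 5′ end turned when the lists were made equally strict. With a −log10 q of at least 5 there were 349 total-only and 253 Ser5P-only 5′ ends, and with lists of equal length 470 and 366. Within 100 bp of the end there were 125 and 545. Without total Pol II replicate 1 the total-only 5′ ends numbered 429, without Ser5P replicate 3 they numbered 412, and without Ser5P replicate 1 the Ser5P-only 3′ ends numbered 282. At the 3′ end, total-only outnumbered Ser5P-only under each of these settings.

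**Figure D4:**
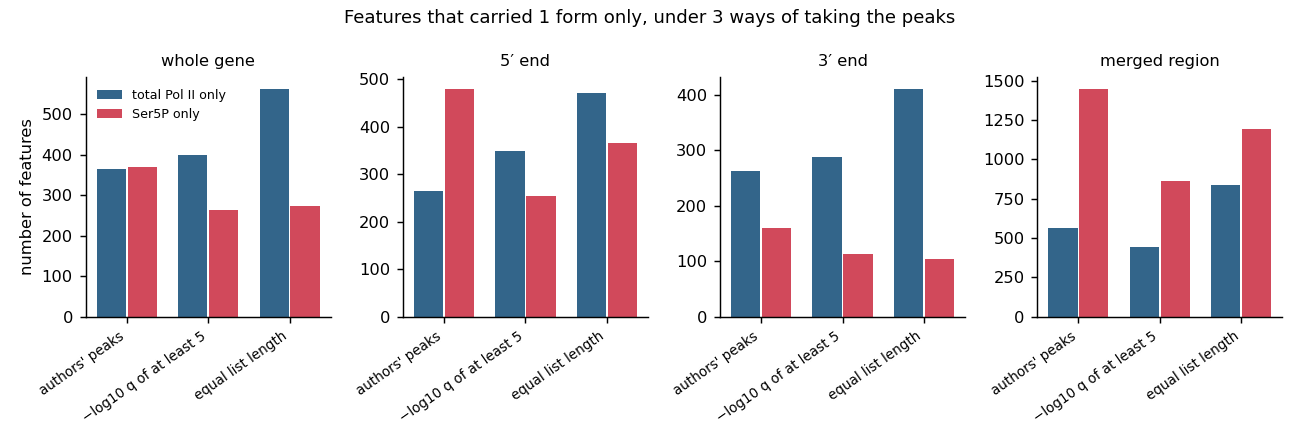
Number of genes, 5′ ends, 3′ ends and merged regions that carried total Pol II only (blue) or Ser5P only (red), with the authors' peaks, with peaks of −log10 q of at least 5, and with 11012 best-scoring peaks in every library. The order of the bars turns at whole genes and 5′ ends (264 and 480 against 470 and 366) and holds at 3′ ends and regions.

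The 2 classes of 5′ ends were also unlike in what lay there. At Ser5P-only 5′ ends the Ser5P summit was within the 250 bp window in 67.1% to 72.9% of genes, with medians of -89.5, -78 and -84 bp from the annotated end, upstream of it. At total-only 5′ ends the total Pol II summit was within the window in 28.4% to 35.6%, a median of 284 to 316 bp downstream. Most of these windows were thus reached by the flank of a peak with its summit outside them. Median widths at these ends were 531.5, 696 and 721.5 bp for total Pol II and 352.5, 422.5 and 416.5 bp for Ser5P. Of the Ser5P-only 5′ ends 257 (53.5%), and of the total-only 5′ ends 206 (78.0%), belonged to genes that had both forms somewhere in the gene.

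The windows at the ends with the highest folds were reached by peaks centred elsewhere, in both classes. ATL6 (AT3G05200), a RING ubiquitin ligase, had total Pol II folds of 9.56, 8.42 and 8.03, with the summit 0.28 to 0.34 of the way into the gene. BCA6 (AT1G58180), a carbonic anhydrase, had 9.01, 9.03 and 8.91, with the summit at 0.93 to 0.95. POP2 (AT3G22200), the aminotransferase that degrades GABA, had 10.2, 9.77 and 9.57, with the summit at its 3′ end. All 3 genes had both forms. Their total Pol II peaks entered the 250 bp window but stopped short of the annotated 5′ end itself. No Ser5P peak entered that window. Of the Ser5P-only 5′ ends, AT1G21590 had 6.81, 7.65 and 7.00 with the summit well upstream, at relative positions of -0.27 to -0.25, and AT4G37480 had 6.16, 6.67 and 6.28 from a peak shared with KAI2, the karrikin receptor. AT3G56050 had 6.54, 6.69 and 7.85 from a peak with its summit at the 3′ end, at 1.00 to 1.02. CIPK3 (AT2G26980), a calcium-signalling kinase, had 6.22, 8.66 and 7.10 from a peak with its summit near the other end, at 0.91 to 0.92.

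At total-only 3′ ends the total Pol II summit lay within the 250 bp window in 68.1% to 74.5% of genes, with medians of 13, 10 and 6 bp past the annotated end. At Ser5P-only 3′ ends the Ser5P summit lay within it in 73.1% to 76.3%, with medians of 82, 90 and 78 bp past the end. At some total-only 3′ ends with a high fold, the window was entered by peaks centred inside the gene. TCH2 (AT5G37770), a touch-induced calmodulin-like protein, had total Pol II folds of 15.8, 14.4 and 17.5 with the summit at 0.10 to 0.13. Its total Pol II peak, unlike its Ser5P peak, extended into the 3′ window, though not to the annotated end. AT1G27100 had 14.2, 11.9 and 12.1 at 0.23 to 0.29. AT2G29340 had 7.80, 9.16 and 8.61 at 0.68 to 0.71. The 4 Ser5P-only 3′ ends with the highest fold, AT1G17090, AT1G27595, AT3G07440 and AT2G47935, had lowest folds of 4.46 to 5.41 and shared their peaks with neighbours.

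Merging the peaks of all 6 libraries gave 16286 regions and freed the classes from gene bounds. Both forms in all 3 libraries were found in 7283 regions (44.7%), Ser5P only in 1451 (8.91%) and total Pol II only in 562 (3.45%). Ser5P-only regions stayed the more numerous among peaks of −log10 q of at least 5, with 864 against 440, and in lists of equal length, with 1193 against 840. Without total Pol II replicate 1 there were 933 total-only regions. Total-only regions had a median width of 649.5 bp and Ser5P-only regions 454 bp.

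The 2 kinds of region lay in different parts of the genome. Of the 1451 Ser5P-only regions, 738 (50.9%) touched no annotated gene, against 2 of the 562 total-only regions and 49 of the 7283 regions with both. Of the Ser5P-only regions that touched oriented genes, 60.1% covered a 5′ end and no 3′ end. Of the total-only regions that touched such genes, 51.3% covered neither end and 38.7% covered a 3′ end alone. Median folds of the Ser5P-only regions off genes were 3.01, 3.23 and 3.26, no lower than the 2.71, 2.76 and 2.77 of those that touched coding genes. At the 49 regions off genes with both forms, median folds were 5.57 to 5.75 for Ser5P and 2.91 to 2.95 for total Pol II, each on the scale of its own list.

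Ser5P-only regions off genes were set beside regions of the TBP list that touched no gene. The median distance to the nearest coding gene was 919 bp, and 403 of 738 (54.6%) lay within 1000 bp. For 2821 TBP regions off genes the median was 782 bp, and 59.6% lay within 1000 bp. The direction of the nearest gene was known for 487, and for 376 of these (77.2%) the nearest end was a 5′ end. The share was 67.6% of 1659 for the TBP regions and 75.8% of 33 for regions off genes with both forms. TBP is the TATA-binding protein, a core factor of promoters. The nearest gene carried both forms at 395 of the 738 regions (53.5%) and neither at 204 (27.6%).

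Features of other libraries, which played no part in the classes, set the regions apart. Ser2P, the mark of elongating polymerase, had a peak at 91.6% to 95.5% of regions with both forms, at 35.2% to 48.2% of total-only regions and at 6.3% to 8.3% of Ser5P-only regions over its 3 libraries. WDR5a, a subunit of histone H3K4 methyltransferase complexes that was precipitated by an HA tag, had a peak at 80.0% to 82.7%, 30.4% to 34.5% and 93.9% to 94.5% of these regions. The labels of the WDR5a libraries name Col-0 and no tagged line, so peaks of the HA antibody without the tag cannot be told apart here. The TBP list touched 92.5%, 34.9% and 90.4%. Over all 16286 regions the shares were 59.5% for Ser2P, 68.9% for WDR5a and 72.1% for TBP. The 3 libraries of a feature did not overlap between the classes for Ser2P and WDR5a. The same held for H3K4me1, H3K4me3 and H2A.Z, and not for the other features with libraries. The same libraries were read at every class, so this is no replicate test of the classes.

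The marks of H3K4 methylation differed from each other. H3K4me3, which marks the first part of transcribed genes, had a peak at 55.7% to 57.1% of total-only regions and 24.5% to 25.02% of Ser5P-only regions. Among regions that touched a coding gene the shares were close, at 56.0% to 57.5% and 56.3% to 57.7%. H3K4me2 had a peak at 52.0% to 54.4% of total-only and 40.1% to 41.9% of Ser5P-only regions at coding genes. For H3K4me1 at coding genes, 22.7% to 25.6% of total-only and 1.64% to 1.81% of Ser5P-only regions had a peak. Regions with both forms at coding genes had 60.7% to 61.1% for H3K4me3, 53.2% to 53.9% for H3K4me2 and 28.9% to 31.8% for H3K4me1. Over all 16286 regions, at genes or off them, the mean shares were 49.4%, 42.6% and 19.9%. At the 738 Ser5P-only regions off genes, WDR5a had peaks at 99.2% to 99.7%, TBP at 93.8%, H2A.Z at 11.4% to 13.8%, H3K4me3 at 0.95% to 1.36%, Ser2P at 0.27% to 0.54% and H3K4me1 at none. The 49 regions off genes with both forms were also high for WDR5a (91.8% to 93.9%) and TBP (95.9%) and low for H3K4me1 (0% to 2.04%). Their shares were larger for H2A.Z (34.7% to 49.0%), H3K4me3 (10.2%) and Ser2P (10.2% to 18.4%). Region width and position differed between the classes, and their part in these shares was not tested.

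**Figure D5:**
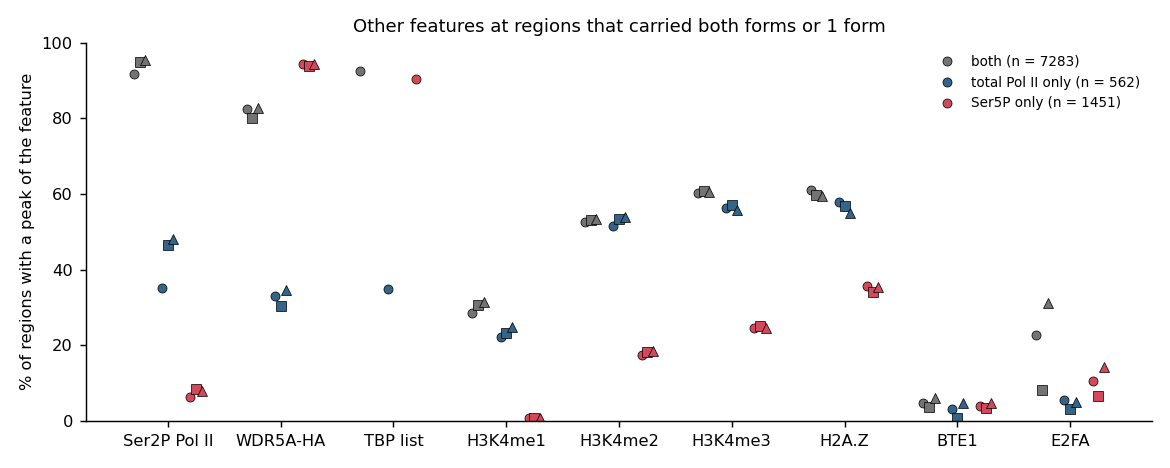
Share (%) of regions with both forms (grey), total Pol II only (blue) or Ser5P only (red) that held a peak of each other feature, with 1 symbol per library of the feature and 1 for the TBP list. Ser5P-only regions are at 93.9% to 94.5% for WDR5A-HA and 6.3% to 8.3% for Ser2P, and total-only regions at 30.4% to 34.5% and 35.2% to 48.2%.

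At whole genes the order of the 2 one-form classes was kept for WDR5a and Ser2P and turned for H3K4me1. WDR5a had a peak at 38.4% ± 4.0 of total-only and 85.4% ± 3.5 of Ser5P-only genes (SD over its 3 libraries), against 49.7% ± 2.3 of all genes. Ser2P had a peak at 51.6% ± 9.4 and 33.3% ± 5.5, against 47.1% ± 3.1 of all genes. H3K4me1 had a peak at 23.4% ± 4.0 and 53.1% ± 1.9, against 41.3% ± 1.5, which is the reverse of its order at regions. Genes with both forms stood at 89.3% ± 2.1 for WDR5a, 96.8% ± 1.8 for Ser2P and 63.3% ± 1.2 for H3K4me1. Among genes over 2000 and up to 3000 bp, H3K4me1 had a peak at 35.4% ± 6.3 of 96 total-only and 53.9% ± 2.9 of 99 Ser5P-only genes. Among those with both forms the share was 73.2% ± 1.5. WDR5a in this length range had a peak at 34.7% ± 5.1 of total-only genes, 90.6% ± 3.2 of Ser5P-only genes and 90.4% ± 2.2 of genes with both. BTE1, one of the factors precipitated in the series, had a peak at 6.2% ± 2.1 of total-only and 11.2% ± 1.9 of Ser5P-only genes, against 6.6% ± 1.2 of all genes. It had one at 6.8% ± 1.6 of genes with both and 9.3% ± 1.7 of mixed genes, and was not read by gene length.

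Genes that do not code for protein were counted by the same rule, beside the shares of 1.33% total-only and 1.34% Ser5P-only in coding genes. Of 625 tRNA genes, which Pol III transcribes, 51 had Ser5P only (8.16%), 1 had total Pol II only (0.16%) and 151 had both. Of 287 small nucleolar RNA genes, 34 had total Pol II only (11.8%) and none had Ser5P only. Of 3480 long noncoding RNA genes, 122 had Ser5P only (3.51%) and 45 total Pol II only (1.29%, near the share in coding genes). Of 3917 pseudogenes, 4 had total Pol II only and 3 Ser5P only, and of 79 antisense RNA genes 1 had total Pol II only. Of 326 microRNA genes 5, and of 82 small nuclear RNA genes 2, had total Pol II only, with Ser5P only at none of either. These genes share peaks with each other and with coding genes. The 51 tRNA genes lay in 50 merged regions, of which 30 were Ser5P-only as regions and 7 touched no coding gene. The 34 small nucleolar RNA genes lay in 24 regions, of which 4 were total-only as regions and 7 touched no coding gene. The 122 long noncoding RNA genes with Ser5P only lay in 110 regions, of which 90 were Ser5P-only. Copies of tRNA genes are near identical, so their reads may be shared out between copies.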

How the data were processed

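Chromatin immunoprecipitation with sequencing had been done on 9-day-old seedlings, and the 6 wild-type libraries with antibodies to total Pol II or Ser5P were compared. The submitters' processing notes name fastp for trimming, Bowtie2 2.3.3 with the TAIR10 build for alignment, and MACS2 2.2.5 as the peak caller. They name no control for the caller. Each deposited list gives, per peak, its bounds and summit, a score, a fold enrichment over the caller's background and −log10 p and −log10 q. The fold is the authors' value for each peak and was used only to describe, rank and filter peaks within a list. Peak lists hold no read totals, so the depth of each library is unknown and no limit that needs it is given.

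Names and bounds of genes were those of RefSeq's TAIR10.1 gene table (none of its coordinates is printed). Of 15948 H3K4me3 summits, 96.9% lay in coding genes, against 67.8% to 69.9% after moving the genes by 1000 or 2000 bp, which checked that both share a frame. The table gives no strand. A gene was oriented when its best H3K4me3 summit lay below a relative position of 0.4, or above 0.6, in all 3 H3K4me3 libraries. Where H2A.Z also oriented a gene, the direction was the same for 11981 of 12095 genes (99.1%). Overlap by 1 bp with a peak called a gene, or a window of 250 bp to either side of a gene end, in a library. One-form classes needed the form in 3 of 3 libraries and the other in 0 of 3. Regions were the merged peaks of the 6 libraries.

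Measures were compared with a two-sided exact permutation test over libraries, whose smallest p for 3 against 3 is 0.1, and adjusted by the Benjamini-Hochberg method over the 20 measures tested. The groups did not overlap in 17 of these measures. Same-numbered libraries of the 2 forms deviated together: over 9770 genes with both forms, the deviations of log2 fold from each form's mean correlated at 0.53, 0.49 and 0.46 for the same number and at -0.29 to -0.16 for different numbers. The numbers were therefore taken as pairs, and an exact sign-flip test over the 3 pairs, whose smallest p is 0.25, was run beside the main test.

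Named genes were the 8 of each one-form class with the highest fold in their lowest library, 4 for each one-form class at each end, the 5 with the highest fold among genes with both forms, and list members in a one-form class. Genes whose one-form peak stood free were added after the data were seen. The comparison and its 11 gene lists were chosen with earlier results of these data known. Calls, directions, summit positions and the exact test were tested on simulated data. Scripts ran in Python 3.11.15 with statsmodels 0.14.6, pandas 2.3.3 and NumPy 2.4.6, and figures were drawn in Matplotlib 3.10.9. A planned search for promoter motifs was not run. Mutant, input and control libraries were not analysed here.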

Additional observations from a re-analysis of the deposited data

How the results depend on the processing

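Over 25 results, 279 values were computed under other settings, of which 237 kept their direction and, for counts, stayed within 1.5 times, 35 were counts or overlaps that moved and 7 turned sign. Some of the 237 could not change. These are the differences under pairing by number, and the shares of a form's genes with a peak at an end under the rule of 2 of 3 libraries. Settings for regions, peaks off genes and summits upstream of the 5′ end, and free-standing peaks, were chosen after seeing the data. Requiring 2 of 3 libraries, with at most 1 of 3 of the other form, gave 1299 total-only and 1252 Ser5P-only genes, 975 and 1072 at 5′ ends, and 907 and 604 at 3′ ends. The authors' lists for the whole series gave 1269 and 1305 genes. Isolated genes, a smaller set, gave 1564 with both, 95 total-only and 96 Ser5P-only, with 420, 59 and 93 at 5′ ends and 1156, 56 and 35 at 3′ ends. Free-standing peaks left 140 and 131 genes. A −log10 q of at least 5 left 253 Ser5P-only 5′ ends, 864 Ser5P-only regions and 430 of them off genes. Lists of equal length gave 563 total-only genes, 470 total-only 5′ ends, and 411 total-only and 104 Ser5P-only 3′ ends. A window of 100 bp left 125 total-only 5′ ends. Requiring overlap of 50% of the peak's length lowered the shares met to 68.3% for total Pol II and 70.1% for Ser5P.

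Leaving out each library gave 416 to 549 total-only and 416 to 619 Ser5P-only genes, 304 to 429 and 518 to 703 at 5′ ends, 308 to 388 and 192 to 282 at 3′ ends, and 629 to 933 and 1515 to 2098 regions. The share of a form's genes with a peak at the 5′ end, total Pol II minus Ser5P, was -0.14 percentage points with the authors' peaks and turned to 3.33 at a −log10 q of at least 5, 3.23 in lists of equal length, 1.62 in isolated genes and 2.13 with a window of 500 bp, and ranged from -1.66 to 1.16 without single libraries. The cause was not tested. Width, summit position, peaks off genes and summits upstream of the 5′ end kept their direction under each setting run, though the size of the difference below 0.1 and of the median position moved by over 1.5 times under some.

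With the replicate block, the pairing by number, the differences equal the unpaired ones by construction, so they are no check on them. Every p that had been 0.1 was 0.25, the smallest that 3 pairs allow. The paired difference was 105 bp for median width, 6.25 percentage points for peaks over 2000 bp and -0.034 for relative position. It was -2.20, 5.08 and -4.97 percentage points for relative positions below 0.1, from 0.1 to 0.2 and above 0.8. For peaks off genes it was -9.46 and for summits upstream -21.4 percentage points. For the median position of the highest summit around the 5′ end of isolated genes it was 232.5 bp. No fit could pass 0.05 in this design. The motif search planned for promoters was not run. Depth is unknown, so a missing peak may be an undetected one.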

Other observations

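Of the 4 Ser5P-only genes with the highest fold in the lowest library, 3 belong to 1 stretch of chromosome 3, which was singled out after its values were seen. It held 7 Ser5P-only regions between positions 22513139 and 22583560 of TAIR10. They lay apart, from 22513139 to 22521764 and from 22581124 to 22583560, with none of the 7 in between. The region at chr3:22520650-22521764, beside AT3G60940, had Ser5P folds of 11.9, 12.8 and 12.3. The region at chr3:22519052-22520426, in AT3G60935, had 6.60, 9.51 and 10.4, and that at chr3:22516813-22517362, across AT3G60930 and AT3G60935, had 8.70, 9.35 and 10.8. The region at chr3:22582209-22583560, in AT3G61028, had 7.13, 8.19 and 8.07. Of 24 libraries of other features, none had a peak at 5 of the 7 regions. The region beside AT3G60940 had peaks of H2A.Z and WDR5A-HA in 3 libraries each, and that beside AT3G60920 had peaks of WDR5A-HA in 3. The TBP list touched none of the 7, against 90.4% of all Ser5P-only regions.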
